A study of Arabidopsis thaliana with 8 samples.

Results

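Methionine metabolism was followed through 10 Arabidopsis thaliana genes in wild-type seedlings and seedlings mutant for 1 or both of 2 histone methyltransferase genes. The genes were MRD1 (AT1G53480), CGS1 (AT3G01120), TS (AT4G29840), MAT4 (AT3G17390), SAM1 (AT1G02500), SAM2 (AT4G01850), MGL (AT1G64660), HMT1 (AT3G25900), HMT2 (AT3G63250) and HMT3 (AT3G22740), chosen by locus and matched to array probes through their transcript accessions. All 10 had a probe and all 10 were among the 20613 genes tested. MRD1 was picked out because it was 1 of the 2 genes called in sdg26 plants against wild type in the same arrays. Its difference in that comparison is therefore given as a description, without a test.

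Transcript levels had been measured on 8 single-colour Agilent arrays, with 2 arrays for each of 4 genotypes: sdg8, sdg26, the sdg8 sdg26 mutant with both mutations, and wild type (Col). All groups were the aerial part of seedlings aged 6 days, grown at 22 °C with 16 h of light and 8 h of darkness. The labels name no allele of either gene and no agent was applied. SDG8 and SDG26 encode SET-domain enzymes that methylate lysines of histone H3, and the series set out to find genes that the single mutants and the mutant with both mutations share or that respond in opposite ways. The series text speaks of 2 experiments and does not say which RNA gave which array, so the spread between arrays of a genotype may be partly technical.

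Each level is a log2 signal with the array's own 75th percentile taken off, so a level of 0 is that percentile and a difference of 1 is a 2-fold change. Levels of different genes come from different probes and were not set against each other. Differences carry the standard error of 1 limma fit over the 8 arrays. The words rose, fell and called are kept for an adjusted p under 0.05, with the adjustment made over all genes tested. SDG8 stood at -3.59 and -3.22 in sdg8, -0.38 and -0.49 in sdg26, and -2.71 and -2.95 in sdg8 sdg26, against -0.63 and -0.36 in wild type. SDG26 stood at -1.07 and -1.0 in sdg8, -5.40 and -5.98 in sdg26, and -4.0 and -5.0 in sdg8 sdg26, against -1.09 and -1.04 in wild type. Each targeted transcript was low in the arrays labelled with its mutation, and whether the probes lie within the mutated stretch was not examined. All 5 leaf photosynthesis markers were well above background on all 8 arrays, as were 4 of 5 root markers and 4 of 5 seed markers, so the labelled aerial tissue was present but root or seed transcripts were not absent. Both sdg8 arrays lay on slide 3, the sdg26 and sdg8 sdg26 arrays on slide 4, and the wild-type arrays on slides 1 and 2. The comparison of sdg8 sdg26 with sdg26 alone lies within 1 slide, and in all others slide and genotype cannot be told apart.

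Plants make methionine from aspartate: cystathionine gamma-synthase, encoded by CGS1, commits O-phosphohomoserine to methionine, while threonine synthase, encoded by TS, draws on the same substrate. S-adenosylmethionine synthetases, among them MAT4, SAM1 and SAM2, then turn methionine into S-adenosylmethionine, the methyl donor that histone methyltransferases use. Methionine is degraded by the lyase MGL and re-formed from homocysteine and S-methylmethionine by the homocysteine S-methyltransferases HMT1, HMT2 and HMT3. Mutations in CGS1 (mto1), TS (mto2) and MAT4 (mto3) make Arabidopsis accumulate methionine, and MRD1 (MTO1 RESPONDING DOWN 1) takes its name from its reduced transcript in mto1.

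MRD1 fell in sdg8 and in sdg8 sdg26 seedlings, and was lowest in sdg26 seedlings. Its level was -3.39 and -3.37 in sdg8, -4.47 and -4.19 in sdg26, and -3.14 and -3.54 in sdg8 sdg26, against -0.52 and -0.41 in wild type. All 6 mutant arrays lay below both wild-type arrays, and both sdg26 arrays lay below the other 4 mutant arrays. On the linear scale the signal was 13.2% and 13.4% of the wild-type mean in sdg8, 6.25% and 7.58% in sdg26, and 15.7% and 11.9% in sdg8 sdg26, while the wild-type arrays were at 96.4% and 104% of it. The means were -3.38 ± 0.01 in sdg8, -4.33 ± 0.20 in sdg26, -3.34 ± 0.29 in sdg8 sdg26 and -0.47 ± 0.08 in wild type (SD, n = 2 each). From high to low the order was wild type, sdg8 sdg26, sdg8 and sdg26, and the middle pair did not differ beyond the spread of their arrays.

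Against wild type, MRD1 fell by 2.91 ± 0.17 in sdg8 (SE, 7.53-fold lower, limma adjusted p = 0.00141) and by 2.87 ± 0.17 in sdg8 sdg26 (7.31-fold lower, adjusted p = 0.00104). Both tests share the wild-type arrays with the comparison that singled the gene out. In that comparison, sdg26 against wild type, the difference was -3.86 ± 0.17 (14.5-fold lower). MRD1 in sdg8 sdg26 did not pass against sdg8, a comparison that uses none of those arrays: the difference was 0.04 ± 0.17, with a 95% interval of -0.37 to 0.45 (adjusted p = 0.937). Against sdg26, on the same slide, MRD1 was higher in sdg8 sdg26 by 0.99 ± 0.17 (1.99-fold, adjusted p = 0.0404), although that comparison shares the sdg26 arrays.

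**Figure D1:**
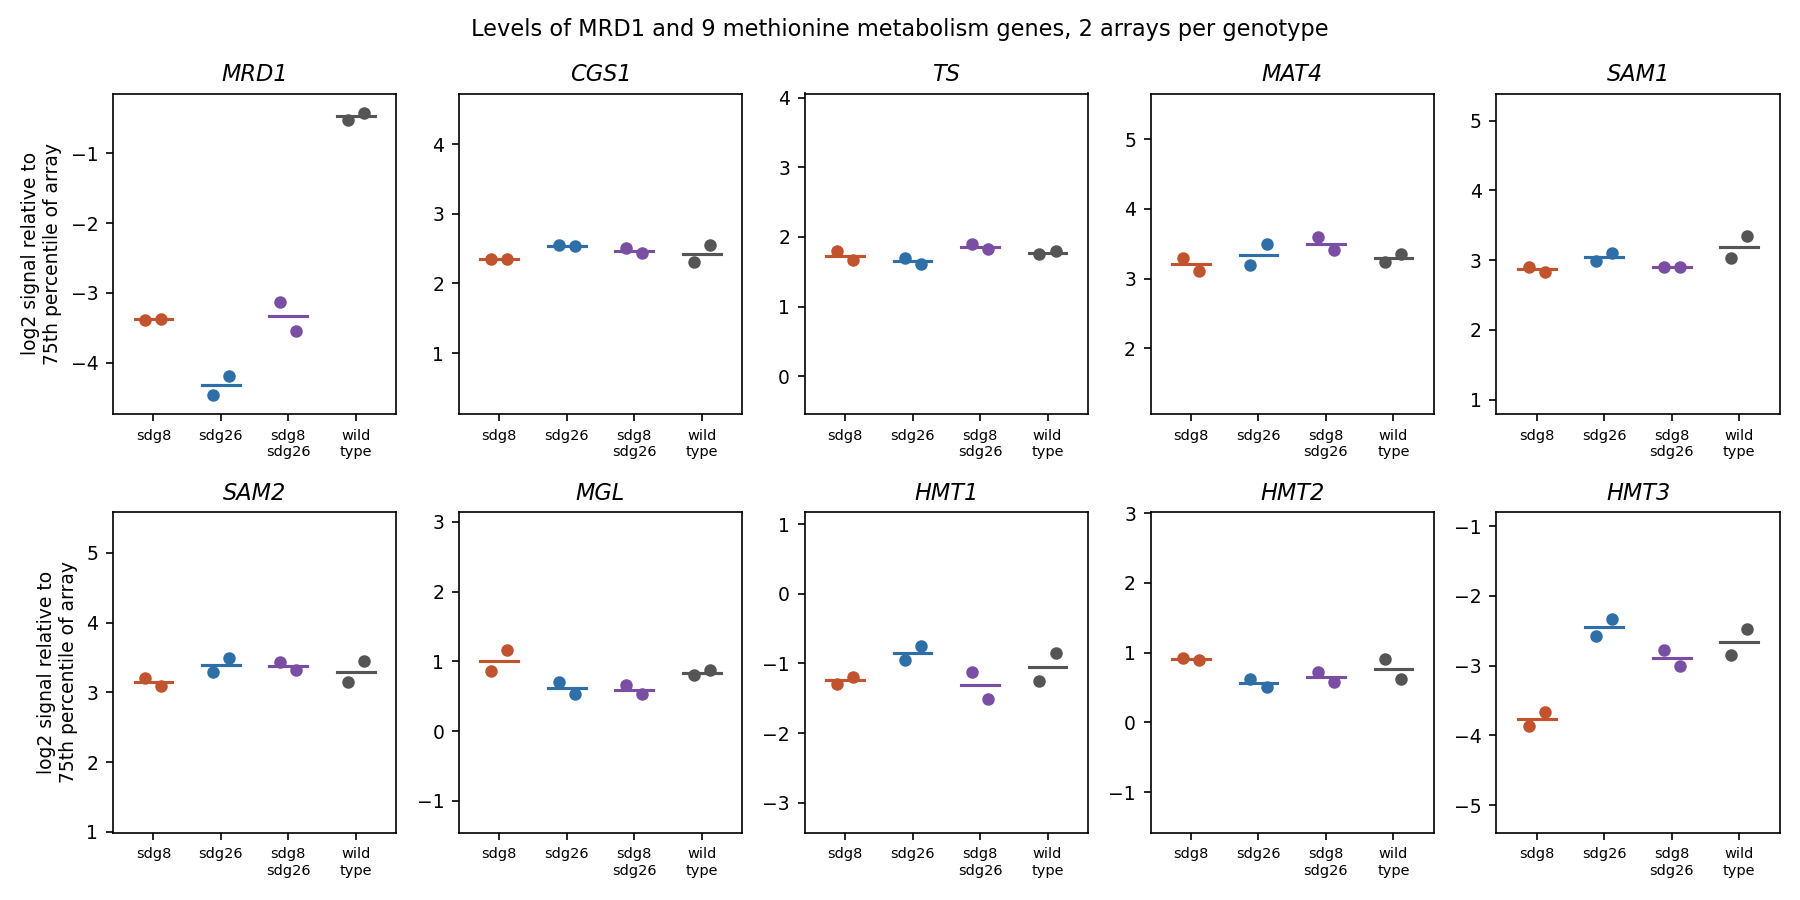
Level of each of the 10 genes on each array (log2 signal relative to the 75th percentile of the array), with sdg8, sdg26 and sdg8 sdg26 left of wild type. Points are arrays, bars are means of 2 arrays, and every panel spans the same number of log2 units around its gene. MRD1 sits between -4.47 and -3.14 on the 6 mutant arrays against -0.52 and -0.41 for wild type, and HMT3 at -3.86 and -3.66 on the sdg8 arrays.

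The sdg26 mutation went with a change of -3.86 in MRD1 where SDG8 was intact and of 0.04 where sdg8 was also mutated. The difference between these changes (the interaction of the mutations) was 3.90 ± 0.24 on the log2 scale. It contains the difference by which the gene was singled out and is given without a test. MRD1 fell in sdg8 and in sdg8 sdg26 under each alternative run except 1, normexp correction on the local background, where the differences from wild type were -2.39 in sdg8 (adjusted p = 0.991), -1.86 in sdg26 and -2.63 in sdg8 sdg26 (adjusted p = 0.473) and limma called 0 of the 20613 genes in any comparison (270 to 2149 at an unadjusted p under 0.05). The higher level in sdg8 sdg26 against sdg26 was less stable: with only those 4 arrays fitted its adjusted p was 0.143, with normexp on the array median background the difference was 0.67 (adjusted p = 0.210), with normexp on the local background it was -0.78 (adjusted p = 0.699), without the filter on dim probes the adjusted p was 0.0848, with the replicate block it was 0.0823, and without 1 array it ran between 0.0499 and 0.185, with the call lost for 7 of the 8 arrays left out, sdg8 sdg26 replicate 2 being the exception.

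Seed marker levels varied between arrays of the same genotype. The summed linear level of 5 seed markers was 0.647 and 2.15 in sdg8, 0.658 and 1.52 in sdg26, 4.19 and 0.795 in sdg8 sdg26, and 8.15 and 1.53 in wild type, where a level of 1 is the 75th percentile of the array. The wild-type arrays differed most in this sum, although 1 of its markers, EM6, read -0.09 and -0.11 on them. MRD1 read -0.52 and -0.41 on those arrays, and its relation to seed transcripts was not tested. The summed level of 4 root markers was 9.36 and 9.93 in sdg8, 9.44 and 11.9 in sdg26, 12.6 and 10.3 in sdg8 sdg26, and 9.75 and 10.8 in wild type, and this sum is carried almost wholly by PYK10. Among the other root markers, CASP1 and IRT1 did differ between genotypes. CASP1, which builds the Casparian strip of the root endodermis, read -2.01 and -2.27 in sdg8, -2.16 and -1.81 in sdg26, and -1.61 and -2.07 in sdg8 sdg26, against -2.84 and -2.78 in wild type. All 6 mutant arrays lay above both wild-type arrays, whereas for MRD1 they lay below. CASP1 rose in sdg8 sdg26 (0.97 ± 0.20, limma adjusted p = 0.0419) but did not pass in sdg8 (0.67 ± 0.20, adjusted p = 0.163) or sdg26 (0.82 ± 0.20, adjusted p = 0.413). IRT1, the iron transporter of the root epidermis, fell in sdg8 against wild type (-1.45 ± 0.18, adjusted p = 0.0128) and rose in sdg8 sdg26 against sdg8 (2.17 ± 0.18, adjusted p = 0.0169). COBL9 was not called in any comparison, NRT2.1 was well above background on 0 of 8 arrays, and the part of these markers in the MRD1 result was not tested. In such bulk samples, fewer cells of a type and less RNA per cell cannot be told apart.

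MRD1 is read by 1 probe, and its neighbourhood on the chromosome holds a second probe with nearly the same pattern. In the RefSeq gene table (TAIR10.1), used only for names and neighbours, MRD1 overlaps HEI10 (AT1G53490), a RING-finger protein of meiotic crossover formation. The overlap covers 1446 of the 1666 bases of MRD1. MRD1 also contains a long non-coding RNA gene, AT1G07887, that no probe matched. HEI10 has 2 probes. Probe A_84_P725341 of HEI10 read -3.71 and -4.55 in sdg8, -5.59 and -5.56 in sdg26, and -4.27 and -4.31 in sdg8 sdg26, against -1.53 and -1.47 in wild type. The mutant arrays again lay below the wild-type arrays and the sdg26 arrays were lowest. Probe A_84_P271180, the brighter one on average and the one that stood for HEI10, read -2.45 and -2.64 in sdg8, -2.85 and -3.01 in sdg26, and -2.46 and -2.55 in sdg8 sdg26, against -2.74 and -2.61 in wild type. On this probe the sdg8 and wild-type arrays overlapped, the sdg26 arrays were lowest and the sdg8 sdg26 arrays lay above wild type, all within a far narrower span.

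In a fit over 34094 probes, chosen after the values of these probes had been seen, A_84_P725341 differed from wild type by -2.63 ± 0.25 in sdg8 (6.19-fold lower), by -4.08 ± 0.25 in sdg26 (16.9-fold lower) and by -2.79 ± 0.25 in sdg8 sdg26 (6.92-fold lower). In sdg8 sdg26 it differed from sdg8 by -0.16 ± 0.25 and from sdg26 by 1.29 ± 0.25. These values are given without a test, because the probe was singled out for its likeness to MRD1 over all 8 arrays. Over the 8 arrays its level correlated with that of MRD1 at r = 0.98, and A_84_P271180 at r = 0.21. The points of such correlations share genotypes and slides. The array files give no probe sequence and the gene table no strand, so which transcripts either probe detects was not tested.

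**Figure D2:**
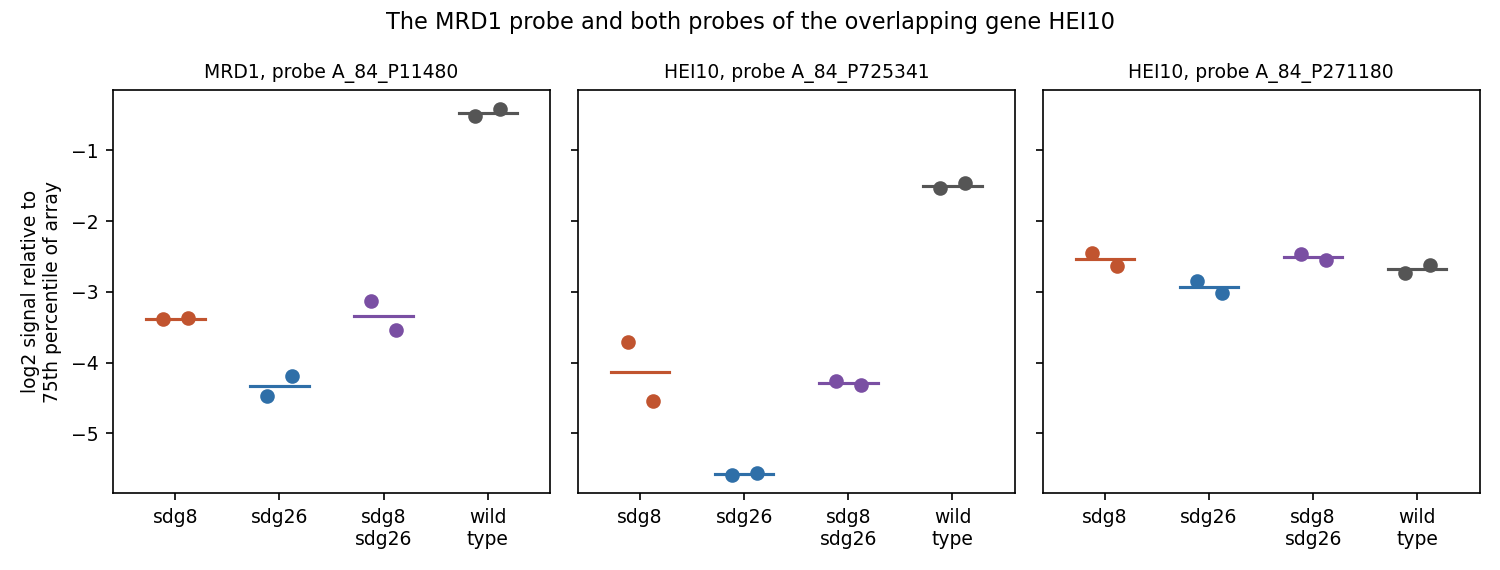
Level on each array (log2 signal relative to the 75th percentile of the array) of the MRD1 probe and of both probes assigned to HEI10, with sdg8, sdg26 and sdg8 sdg26 left of wild type. Points are arrays and bars are means of 2 arrays. Probe A_84_P725341 runs with MRD1, between -5.59 and -3.71 on mutant arrays and at -1.53 and -1.47 on wild-type arrays, and probe A_84_P271180 stays between -3.01 and -2.45 throughout.

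With 1 probe standing for each gene, the genes next to MRD1 were not called in any of the 6 comparisons. For HEI10 this depended on the probe: with the mean of all probes it was called lower than wild type in each mutant. On the one side these were AT1G53450, AT1G53460 and MSL4, a mechanosensitive channel-like protein. On the other were HEI10 (overlapping MRD1, as read by A_84_P271180), MUM4, a rhamnose synthase needed for seed coat mucilage, and MPK18, a MAP kinase. Against wild type their differences ran from 0.01 to 0.37 in sdg8, from -0.26 to 0.33 in sdg26 and from 0.14 to 0.36 in sdg8 sdg26.

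**Figure D3:**
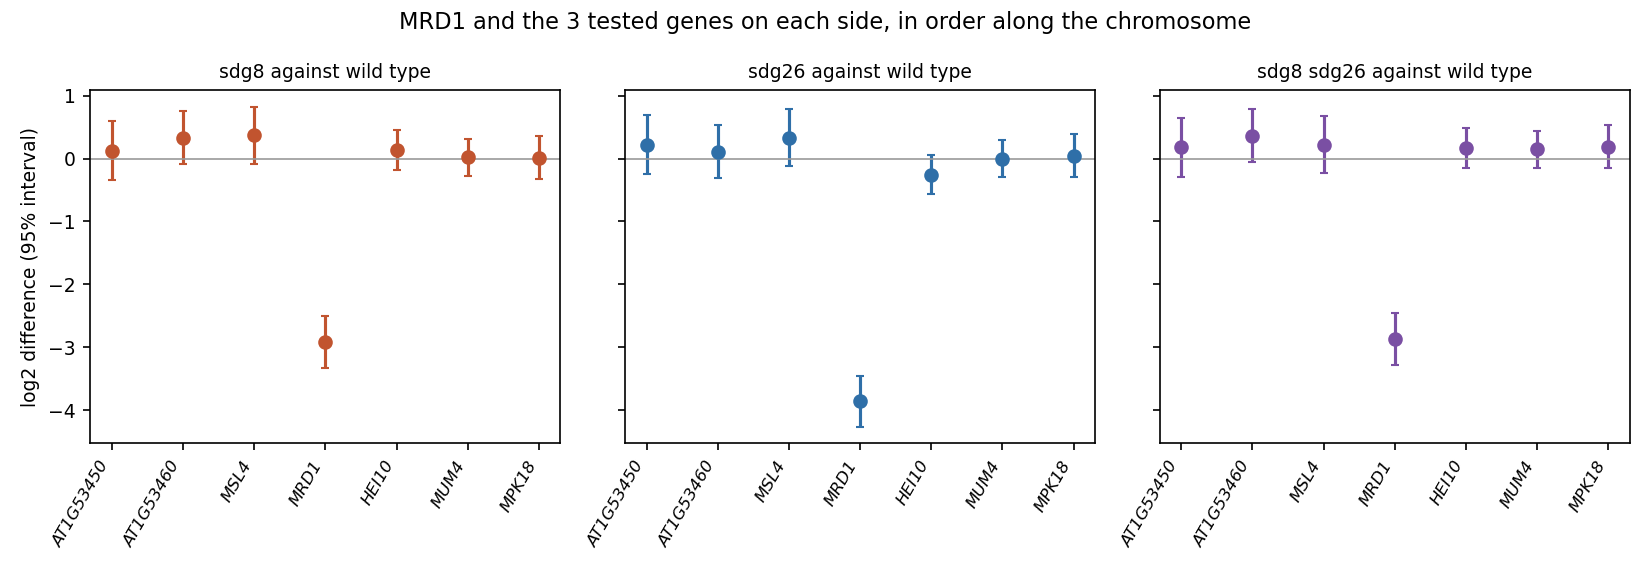
Log2 difference from wild type in sdg8, sdg26 and sdg8 sdg26 for MRD1 and the 3 tested genes on each side, in their order along the chromosome (horizontal axis, not to scale). Points are fitted differences and bars are 95% intervals. MRD1 lies at -2.91, -3.86 and -2.87 and the 6 neighbours between -0.26 and 0.37. HEI10, which overlaps MRD1, is read here by probe A_84_P271180.

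Among 4856 genes whose arrays spanned at least 1 log2 unit, the 5 whose level followed MRD1 most closely over the 8 arrays were AT5G03090 (r = 0.98), AT1G29770 (r = 0.96), AT5G36805 (r = 0.94), AT1G51250 (r = 0.93) and MAF5 (r = 0.92). AT5G03090 averaged -3.39 in sdg8, -3.62 in sdg26 and -3.17 in the sdg8 sdg26 mutant, against -1.59 in wild type, with differences of -1.79, -2.03 and -1.57. AT1G29770 averaged -2.62 in sdg8, -2.81 in sdg26 and -2.81 in the sdg8 sdg26 mutant, against -1.71 in wild type, with differences of -0.91, -1.1 and -1.09. AT5G36805 was well above background only on the 2 wild-type arrays, and was at least 2.24-fold lower in sdg8, at least 4.89-fold lower in sdg26 and at least 4.10-fold lower in sdg8 sdg26. It passed the filter on dim probes through wild type alone, so its lower level in the mutants follows in part from that filter. AT1G51250 differed from wild type by -1.05, -1.11 and -1.21. MAF5, a MADS-box floral repressor of the FLC group, differed by -1.34, -1.24 and -1.17. The genes that ran most against MRD1 were AT1G12663 (r = -0.92), CEP1 (r = -0.91), a cysteine endopeptidase, and RTL3 (r = -0.91), an RNase III-like protein. AT5G36805 was well above background on 2 of the 8 arrays, AT1G12663 on 3 and RTL3 on 7, so their ranks rest partly on levels not above it. Likeness over 8 arrays is a description, since the arrays share genotypes and slides.

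On the probes that stood for them, the 9 genes of methionine metabolism did not share the pattern of MRD1. Their correlations with MRD1 over the 8 arrays then ran from -0.26 (CGS1) to 0.57 (SAM1). The correlation depended on the probe: the SAM1 probes not used gave r = 0.62 and 0.45. The SAM2 probe not used, A_84_P15663, lay below wild type on every mutant array. Of the 10 genes, 2 fell in sdg8 against wild type, MRD1 and HMT3, where 1.91% of all genes tested fell. In sdg26 against wild type MRD1 alone was called, where 0.0097% of all genes were called, and this comparison chose it. In sdg8 sdg26 against wild type MRD1 alone fell, where 3.19% of all genes fell. Against sdg8, 0 of the 10 were called in sdg8 sdg26, where 0.281% of all genes were called. At an unadjusted p under 0.05 by limma it was 2 of the 10, MGL and HMT3, beside 13.8% of all genes. Against sdg26, MRD1 alone rose in sdg8 sdg26, where 0.713% of all genes rose. That call of MRD1 shares the sdg26 arrays with the comparison that chose the gene. Its calls in sdg8 and sdg8 sdg26 against wild type share the wild-type arrays. The median difference of the 10 genes was -0.12 in sdg8, -0.03 in sdg26 and -0.17 in the sdg8 sdg26 mutant, beside medians of -0.01, 0.02 and 0.03 over all genes.

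**Figure D4:**
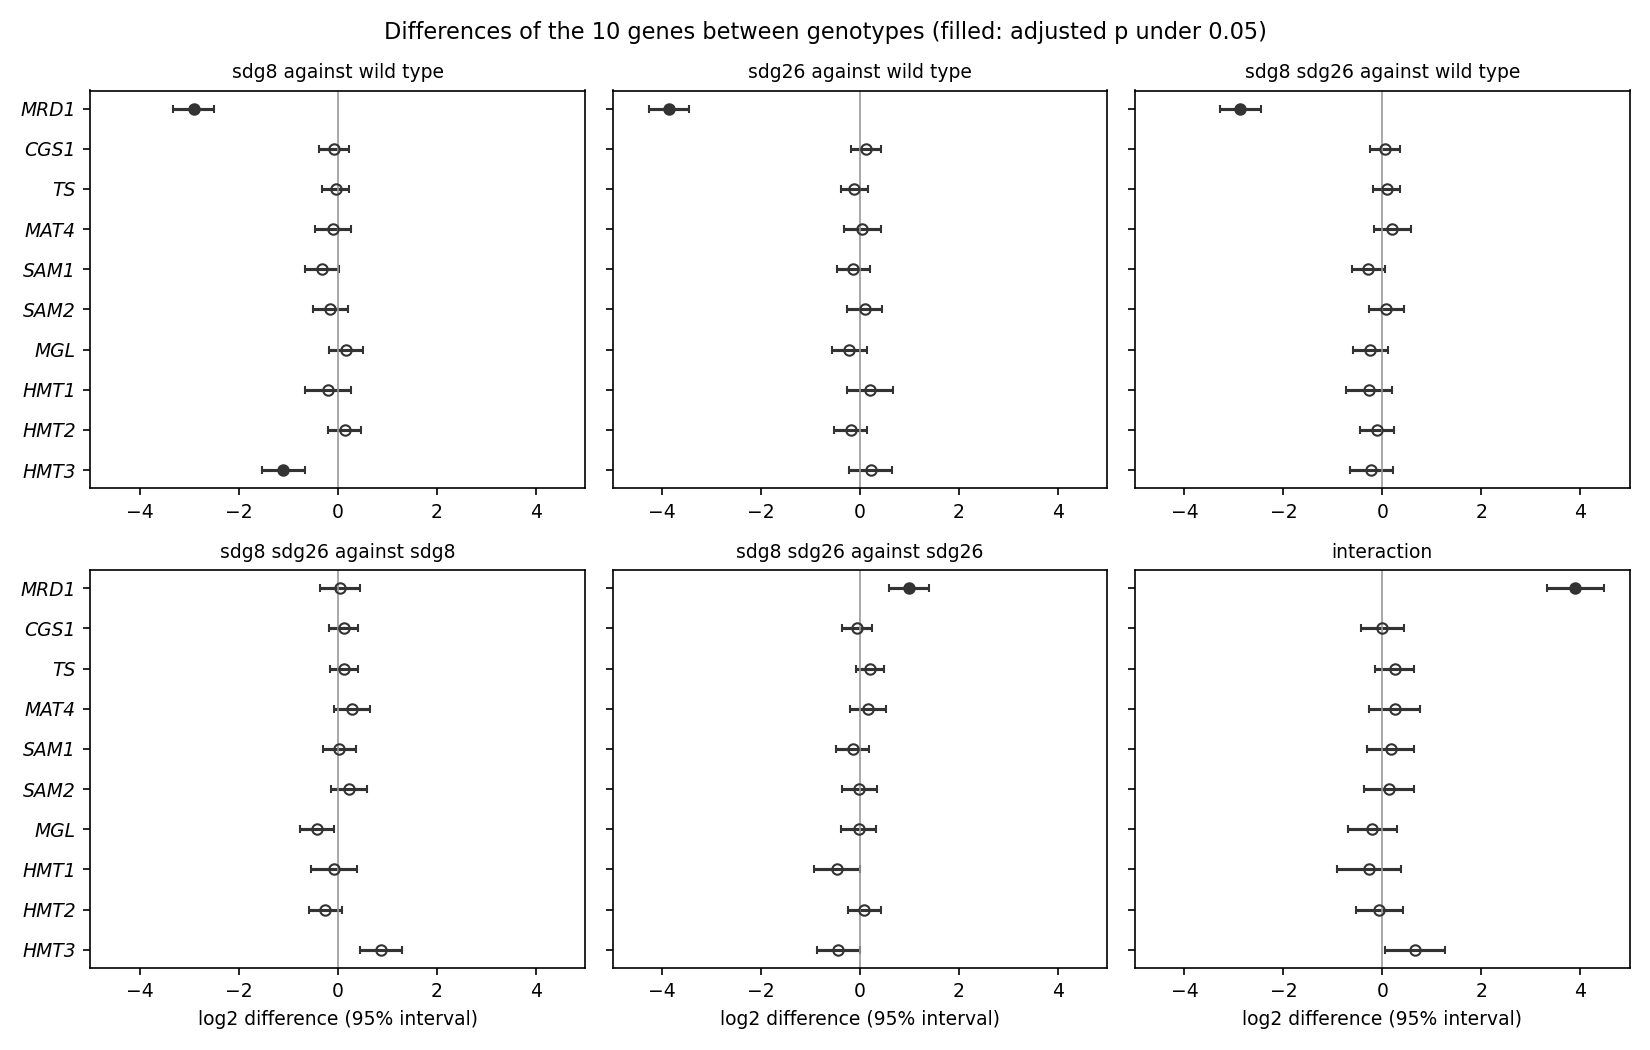
Log2 difference of each of the 10 genes in the 6 comparisons, the first-named genotype minus the second, with the interaction in the last panel. Points are fitted differences, bars are 95% intervals, and filled points have an adjusted p under 0.05. MRD1 stands at -2.91, -3.86 and -2.87 against wild type, HMT3 at -1.1 in sdg8 against wild type, and the other 8 genes lie between -0.46 and 0.29 in every panel. The filled MRD1 points for sdg26 against wild type and for the interaction rest on the difference that chose the gene. The other filled MRD1 points come from comparisons that share arrays with sdg26 against wild type.

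HMT3 fell in sdg8, and its levels in the other mutants overlapped those of wild type. HMT3, which methylates homocysteine with S-methylmethionine, stood at -3.86 and -3.66 in sdg8, -2.57 and -2.33 in sdg26, and -2.78 and -3.00 in sdg8 sdg26, against -2.85 and -2.47 in wild type. Both sdg8 arrays lay below the other 6, at 43.5% and 50% of the wild-type mean on the linear scale. The means were -3.76 ± 0.14 in sdg8, -2.45 ± 0.17 in sdg26, -2.89 ± 0.16 in sdg8 sdg26 and -2.66 ± 0.27 in wild type (SD, n = 2 each).

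Against wild type HMT3 fell by 1.1 ± 0.18 in sdg8 (2.14-fold lower, limma adjusted p = 0.0331). It did not pass in sdg26 (0.21 ± 0.18, adjusted p = 0.75) or in sdg8 sdg26 (-0.23 ± 0.18, adjusted p = 0.471). In sdg8 sdg26 it differed from sdg8 by 0.87 ± 0.18 (adjusted p = 0.140) and from sdg26 by -0.44 ± 0.18 (adjusted p = 0.330), and neither passed. The interaction was 0.66 ± 0.26 (adjusted p = 0.995), so the response to the mutations was not shown to depart from additivity. The call in sdg8 was lost without the filter on dim probes (adjusted p = 0.0777), with only the sdg8 and wild-type arrays fitted (0.0877), with normexp on the local background (0.991) and with the replicate block (0.0505). It was also lost without either sdg8, sdg26 or wild-type array, when adjusted p reached at most 0.148.

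The other homocysteine S-methyltransferases were not called. HMT1 read -1.29 and -1.19 in sdg8, -0.95 and -0.75 in sdg26, and -1.12 and -1.50 in sdg8 sdg26, against -1.25 and -0.84 in wild type. The groups overlapped wild type except that 1 sdg26 array lay above it and 1 array each of sdg8 and sdg8 sdg26 below. HMT2 read 0.92 and 0.89 in sdg8, 0.63 and 0.52 in sdg26, and 0.73 and 0.58 in sdg8 sdg26, against 0.91 and 0.62 in wild type. Here the sdg8 arrays stood at the upper and the sdg26 arrays at the lower edge of the wild-type arrays. The largest difference of HMT1 was that of sdg8 sdg26 against sdg26, at -0.46 ± 0.19 (adjusted p = 0.331).

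At the branch point between methionine and threonine, levels stayed within a narrow band. CGS1 read 2.36 and 2.35 in sdg8, 2.55 and 2.53 in sdg26, and 2.50 and 2.44 in sdg8 sdg26, against 2.3 and 2.55 in wild type. Every CGS1 array of a mutant lay between the wild-type arrays. TS read 1.80 and 1.66 in sdg8, 1.70 and 1.62 in sdg26, and 1.90 and 1.82 in sdg8 sdg26, against 1.76 and 1.79 in wild type. For TS both sdg26 arrays lay below wild type and both sdg8 sdg26 arrays above it, with small gaps. The differences of CGS1 from wild type were -0.07 ± 0.13 in sdg8, 0.11 ± 0.13 in sdg26 and 0.05 ± 0.13 in the sdg8 sdg26 mutant, and those of TS were -0.04 ± 0.12, -0.12 ± 0.12 and 0.09 ± 0.12 for the same genotypes. CGS1 has 4 probes, all 4 of which were below wild type in sdg8, with differences of -0.51 to -0.06 and none called.

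The S-adenosylmethionine synthetase genes were likewise not called. SAM1 read 2.90 and 2.83 in sdg8, 2.99 and 3.11 in sdg26, and 2.90 and 2.90 in sdg8 sdg26, against 3.02 and 3.34 in wild type. Both sdg8 and both sdg8 sdg26 arrays lay below the wild-type arrays, and the sdg26 arrays overlapped them. The difference of SAM1 from wild type was -0.32 ± 0.14 in sdg8 (adjusted p = 0.333) and -0.28 ± 0.14 in sdg8 sdg26 (adjusted p = 0.257), and all 3 SAM1 probes were below wild type in each mutant. SAM2 read 3.20 and 3.09 in sdg8, 3.29 and 3.49 in sdg26, and 3.43 and 3.32 in sdg8 sdg26, against 3.15 and 3.45 in wild type. On the probe used, all 3 mutants overlapped wild type for SAM2. Its other probe, A_84_P15663, read 3.09 and 3.06 in sdg8, 3.02 and 3.17 in sdg26, and 2.96 and 2.90 in sdg8 sdg26. With 3.18 and 3.43 in wild type, every mutant array lay below both wild-type arrays on that probe. The 2 SAM2 probes thus differed in sign in sdg26 and in sdg8 sdg26, and neither was called. MAT4 read 3.30 and 3.11 in sdg8, 3.19 and 3.50 in sdg26, and 3.59 and 3.41 in sdg8 sdg26, against 3.24 and 3.35 in wild type. Only the sdg8 sdg26 arrays of MAT4 lay apart from wild type, above it by 0.20 ± 0.15 (adjusted p = 0.443).

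MGL, the methionine lyase, read 0.86 and 1.16 in sdg8, 0.70 and 0.54 in sdg26, and 0.66 and 0.53 in sdg8 sdg26, against 0.80 and 0.87 in wild type. Both sdg26 and both sdg8 sdg26 arrays lay below wild type, while the sdg8 arrays were at 101% and 125% of the wild-type mean. The largest difference of MGL was that of sdg8 sdg26 against sdg8, at -0.42 ± 0.15 (adjusted p = 0.290), with both MGL probes lower.

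Arrays of the groups did not overlap for 3 of the 10 genes in sdg8 against wild type, all lower, where 25.8% of all genes were lower and 21.9% higher without overlap. In sdg26 it was 3 of 10, all lower, beside 18.3% of all genes lower and 22.9% higher. In sdg8 sdg26 it was 2 higher and 3 lower, beside 29.4% and 25.4% of all genes. The shares that were lower, and both shares in sdg8 sdg26, are near those of all genes, while 0 of the 10 were higher without overlap in sdg8 or in sdg26. With 2 arrays a group a gap between groups is common. Among the 9 enzymes, levels over the 8 arrays ran together for CGS1 and SAM2 (r = 0.86) and for MAT4 and SAM2 (r = 0.81), and ran opposite for CGS1 and HMT2 (r = -0.86), SAM2 and HMT2 (r = -0.82) and HMT2 and HMT3 (r = -0.78). These are descriptions over 8 arrays that share genotypes and slides.

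Other genes of the pathway were followed through 75 genes in 7 lists by role, of which 72 were tested. In sdg8 against wild type 3 of the 72 fell and 0 rose, beside 1.91% of all genes that fell and 0.834% that rose. They were APS4, an ATP sulfurylase of sulfate assimilation, ACS7, which makes the ethylene precursor ACC from S-adenosylmethionine, and NAS2, a nicotianamine synthase that also consumes it. In sdg26 against wild type 0 of 72 were called, beside 0.0097% of all genes, and 8 had an unadjusted p under 0.05 by limma, beside 8.96% of all genes. In sdg8 sdg26 against wild type APS4 fell and MAM3 rose, beside 3.19% of all genes that fell and 3.06% that rose. MAM3 is a methylthioalkylmalate synthase that lengthens the methionine chain for aliphatic glucosinolates. In sdg8 sdg26, NAS2 and MAM3 rose against sdg8, and APS4 fell against sdg26, where 0.204% of all genes rose and 1.49% fell in those comparisons. The interaction called 0 of the 72, beside 0.00485% of all genes, and 4 had an unadjusted p under 0.05 by limma, beside 4.48% of all genes.

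APS4 read -1.15 and -1.08 in sdg8, -0.33 and -0.25 in sdg26, and -1.15 and -1.44 in sdg8 sdg26, against -0.09 and -0.09 in wild type. All arrays with the sdg8 mutation lay below the 4 without it. APS4 fell by 1.02 ± 0.14 in sdg8 (2.03-fold lower, adjusted p = 0.0166) and by 1.20 ± 0.14 in sdg8 sdg26 against wild type (2.3-fold lower, adjusted p = 0.00682), and by 1.0 ± 0.14 in sdg8 sdg26 against sdg26 (2.0-fold lower, adjusted p = 0.0173). In sdg26 against wild type its difference was -0.20 ± 0.14 (adjusted p = 0.689). MAM3 read -2.55 and -2.76 in sdg8, -1.05 and -1.38 in sdg26, and -0.87 and -1.02 in sdg8 sdg26, against -2.24 and -2.14 in wild type. All arrays with the sdg26 mutation lay above the 4 without it. MAM3 rose in sdg8 sdg26 by 1.24 ± 0.16 against wild type (2.37-fold, adjusted p = 0.00960) and by 1.71 ± 0.16 against sdg8 (3.27-fold, adjusted p = 0.0196). Its differences from wild type of 0.97 ± 0.16 in sdg26 (adjusted p = 0.184) and -0.47 ± 0.16 in sdg8 (adjusted p = 0.204) did not pass.

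NAS2 read -3.85 and -3.85 in sdg8, -3.02 and -2.97 in sdg26, and -2.23 and -2.73 in sdg8 sdg26, against -2.78 and -2.85 in wild type. The sdg8 arrays were the lowest and the sdg8 sdg26 arrays the highest. NAS2 fell by 1.04 ± 0.17 in sdg8 against wild type (2.05-fold lower, adjusted p = 0.0337) and rose by 1.37 ± 0.17 in sdg8 sdg26 against sdg8 (2.59-fold, adjusted p = 0.0437). ACS7 read -5.41 and -5.34 in sdg8, -4.53 and -4.26 in sdg26, and -4.85 and -4.82 in sdg8 sdg26, against -4.54 and -4.28 in wild type. ACS7 fell by 0.96 ± 0.15 in sdg8 against wild type (1.95-fold lower, adjusted p = 0.0278), with the sdg8 arrays lowest and the sdg26 and wild-type arrays overlapping. With normexp on the local background none of these calls remained. The call of ACS7 in sdg8 was also lost with quantile normalization (adjusted p = 0.0504), normexp on the array median background (0.0949) and no filter on dim probes (0.0654), and that of NAS2 in sdg8 with no filter (0.0777) and the replicate block (0.0543). The call of NAS2 against sdg8 was also lost with quantile normalization (0.0517), no filter (0.105), slide as a random block (0.0571) and the replicate block (0.0790), that of MAM3 against sdg8 with no filter (0.0628), and that of APS4 against sdg26 with the mean of all probes (0.0556). With only the arrays compared in the fit, the calls against wild type of APS4 and MAM3 in sdg8 sdg26 were kept, and those of APS4, NAS2 and ACS7 in sdg8, of NAS2 and MAM3 against sdg8 and of APS4 against sdg26 were lost. Leaving out either sdg8 or either wild-type array also lost the calls of APS4, ACS7 and NAS2 in sdg8 (adjusted p up to 0.0949, 0.132 and 0.140), and for NAS2 leaving out either sdg26 array did so too. The call of MAM3 in sdg8 sdg26 against wild type was lost without wild-type replicate 1 (0.0565), that of MAM3 against sdg8 without either sdg8 array or sdg8 sdg26 replicate 1 (up to 0.0896), that of APS4 against sdg26 without either sdg26 array or sdg8 sdg26 replicate 2 (up to 0.127), and that of NAS2 against sdg8 without any array but sdg8 sdg26 replicate 2 (up to 0.172).

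Calls were few in each list. By limma, none of the 11 genes on the way from aspartate to methionine, the 10 of the methyl cycle, the 9 of methionine salvage or the 5 of threonine, lysine and isoleucine was called in any comparison, while at an unadjusted p under 0.05 a comparison held 0 to 2 of the first, 0 to 1 of the methyl cycle, 0 to 2 of salvage and 0 of the last. In sdg8 against wild type the median difference was -0.02 for aspartate to methionine, -0.14 for the methyl cycle, 0.03 for salvage, -0.14 for the 16 tested genes that use S-adenosylmethionine, -0.34 for the 18 from sulfate to cysteine and -0.47 for the 3 of chain elongation, beside -0.01 over all genes. Of the 18 genes from sulfate to cysteine 15 were below wild type in sdg8, 9 of them with no overlap of the arrays, and 1 fell. Over all genes 51.3% were below wild type in sdg8, 25.8% with no overlap, and 1.91% fell. Of the 10 genes of the methyl cycle 9 were below wild type in sdg8, 8 of them with no overlap, and 0 fell, beside the same shares of all genes. In sdg8, 0 of these 10 had an unadjusted p under 0.05 by limma, beside 16.7% of all genes. In sdg26 the medians of the same 2 lists were -0.08 and -0.18, and in sdg8 sdg26 they were -0.04 and -0.09. Over all 72 genes the median difference from wild type was -0.13 in sdg8, -0.02 in sdg26 and 0.02 in the sdg8 sdg26 mutant.

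**Figure D5:**
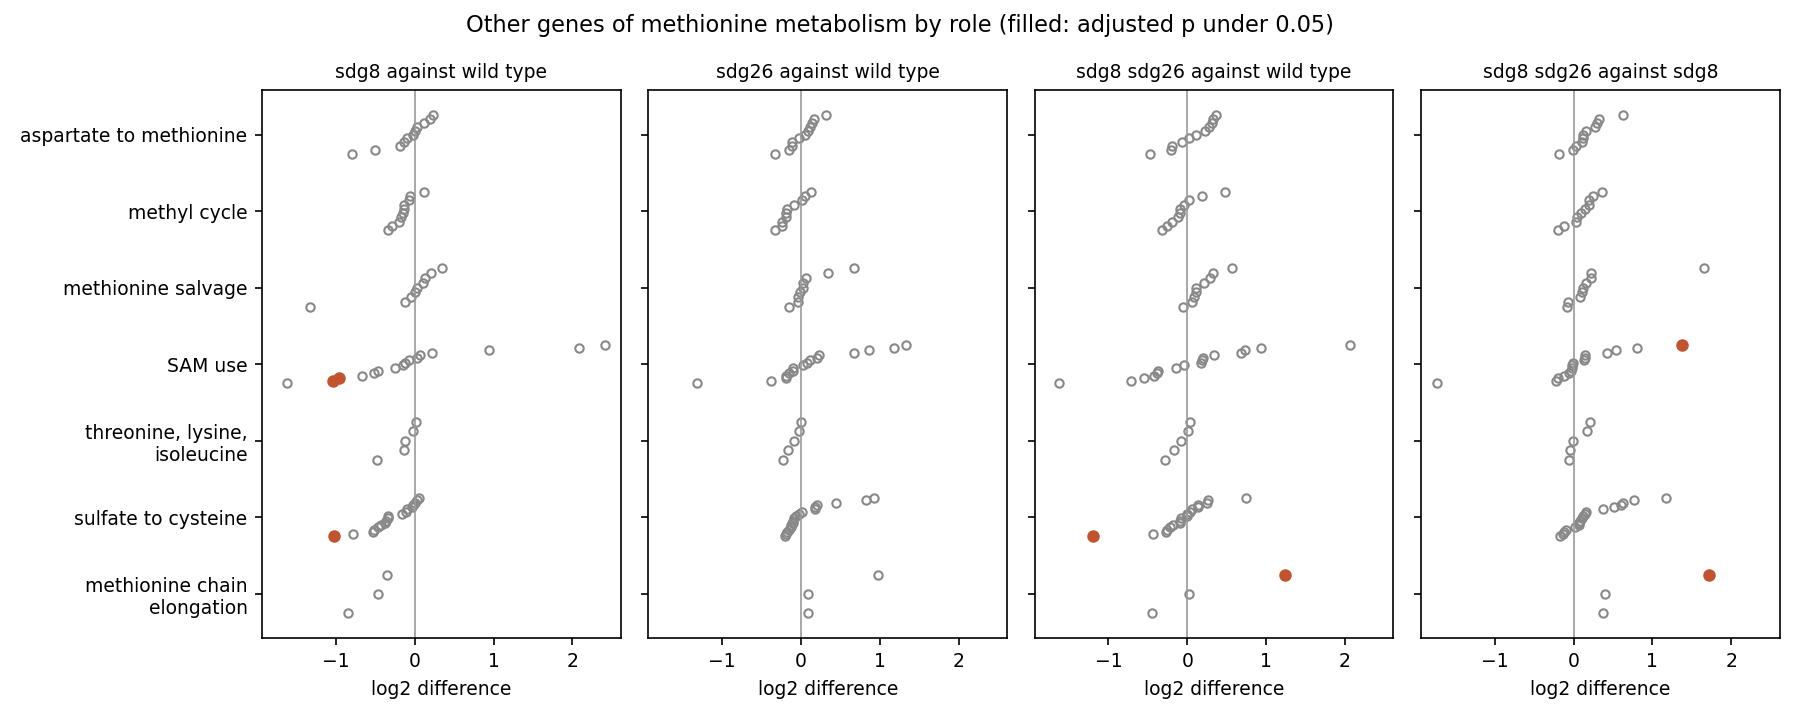
Log2 difference of 72 other genes of methionine metabolism, grouped by role down the page, in 4 comparisons that share 1 horizontal scale. Each point is a gene, ordered by its difference within its list, and filled points have an adjusted p under 0.05. Filled points are APS4, ACS7 and NAS2 in sdg8 against wild type, APS4 and MAM3 in sdg8 sdg26 against wild type, and NAS2 and MAM3 in sdg8 sdg26 against sdg8.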

How the data were processed

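Each of 8 samples, 2 per genotype, was hybridised to 1 single-colour Agilent array after Cy3 labelling of cRNA made from 0.5 ug of TRIzol-extracted RNA, per the labels' protocols. Groups and replicate numbers came from the sample titles. The authors extracted each spot's intensity with Agilent's Feature Extraction software (11.5.1.1 per the file headers, 9.1 per the submitters' processing notes), and the deposited processed signal had the background taken off. A second deposited table, of log2 values, differed from the values used here by nearly 1 constant per array (medians -0.0103 to -0.0067), so its scale, centring and direction were settled from that comparison. Its column medians ran from -2.37 to -2.29, and it served as an alternative.

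Each processed signal was put on a log2 scale, and the 75th percentile over the non-control spots of its array was subtracted. Non-uniform spots (18 to 83 per array) were set to missing, and 0 were saturated. Of 43603 probes 34099 passed, meaning that some genotype had the probe well above background on both of its arrays. The brightest passing probe, by its mean, stood for a gene, which left 20613 genes. Loci came from the TAIR10.1 gene table for 34285 of 36098 probes with a RefSeq transcript accession, and 9318 probes had no locus. All 20 probes of the 10 genes were well above background on all 8 arrays.

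Differences were tested two-sided with limma 3.58.1 (under R 4.3.3 with statmod 1.5.0). One model held the 4 genotypes, had 4 residual degrees of freedom and 2.81 from the prior, and p-values of each of 6 comparisons were adjusted over all genes by Benjamini-Hochberg. The median standard error of a difference was 0.167. The steps were tested on simulated data.

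The 10 genes, the 7 lists of 75 pathway genes and the tests were chosen with earlier results of these data known. Named were the 10 genes, SDG8 and SDG26, up to 4 called pathway genes per comparison, the 5 genes most and the 3 least like MRD1, and 3 tested genes on each side of it. Replicate numbers were checked by correlating deviations from the group means. These were 0.39, 0.15 and 0.24 among sdg8, sdg26 and wild type, but -0.35, -0.40 and -0.16 between sdg8 sdg26 and each of them. The numbers as given therefore do not pair the arrays across all genotypes. Deviations that arrays of different genotypes share were not modelled in the main fit. Alternatives were quantile normalization, normexp correction (offset 50, on the median signal, since the mean signal that had been planned for was not used here), the deposited table, the filter on dim probes, the mean of all probes, slide as a random block, a replicate block, fits on the compared arrays and leaving out each array.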

Additional observations from a re-analysis of the deposited data

Results flagged for a closer look

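MRD1 changed by 0.04 ± 0.17 in sdg8 sdg26 against sdg8 and by -3.86 ± 0.17 in sdg26 against wild type, and the difference between these changes was 3.90 ± 0.24 on the log2 scale. It is listed because the effect of the sdg26 mutation differed in size with and without the sdg8 mutation. The value contains the difference by which the gene was chosen, so it is a description and no test outcome is read from it. It was 1.61 with normexp on the local background. The levels behind it lie on different slides, and slide and genotype cannot be told apart in it.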

How the results depend on the processing

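The crossed block and the fit on every probe were chosen after seeing the data. MRD1 was lower than wild type in all 3 mutants under every alternative run. Normexp on the local background left 0 genes called over all 20613, hence 0 of the 10 genes and 0 of the 72 pathway genes in each comparison, and the cause was not tested. Under it the median difference of all genes from wild type was -0.13 in sdg8, 0.20 in sdg26 and -0.22 in the mutant with both mutations. It also turned the direction of MRD1 in sdg8 sdg26 against sdg8 (-0.24) and against sdg26 (-0.78), the HMT3 interaction (-0.073), HEI10 in sdg8 (-0.23), sdg26 (0.49) and sdg8 sdg26 (-0.18) against wild type, its probe A_84_P725341 in sdg8 sdg26 against sdg26 (-0.90) and AT1G51250 in sdg26 (0.13). Normexp on the array median background gave -0.048 for MRD1 in sdg8 sdg26 against sdg8, -0.038 for HMT3 in sdg26 against wild type, 0 of the 10 genes in sdg8 sdg26 against sdg26 and 4 pathway genes in sdg8 sdg26 against wild type. Quantile normalization gave -0.030 for MRD1 in sdg8 sdg26 against sdg8 and 1 pathway gene there. The mean of all probes gave HEI10 differences of -1.25 in sdg8 and -1.31 in sdg8 sdg26 against wild type, and 0 pathway genes in sdg8 sdg26 against sdg26.

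Leaving off the filter on dim probes adds genes to the adjustment. Of the 10 genes, 1 was then called in sdg8 against wild type and 0 in sdg8 sdg26 against sdg26. Of the pathway genes, 1 was called in sdg8 against wild type and 0 in sdg8 sdg26 against sdg8. With only the arrays compared, which leaves fewer samples, 1 of the 10 genes was called in sdg8 against wild type and 0 in sdg8 sdg26 against sdg26, and the pathway genes called were 0 both in sdg8 against wild type and in sdg8 sdg26 against either single mutant. Slide as a random block left 1 pathway gene in sdg8 sdg26 against sdg8.

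The replicate block, whose numbers do not pair the arrays across all genotypes, left 1 of the 10 genes in sdg8 against wild type. It left 0 in sdg8 sdg26 against sdg26, with 1 pathway gene in sdg8 sdg26 against sdg8. Over all genes the calls were 565 in sdg8 and 1288 in sdg8 sdg26 against wild type and 58 and 454 in sdg8 sdg26 against sdg8 and sdg26. They became 351, 899, 33 and 317 with the replicate block, 222, 727, 0 and 263 without the filter on dim probes, 215, 500, 0 and 170 with only the arrays compared, and 295, 2172, 88 and 345 with normexp on the array median background. With the numbers of sdg8 sdg26 crossed, the block called 1 of the 10 genes in sdg8 sdg26 against sdg8, and 8 pathway genes in sdg8 and 5 in sdg8 sdg26 against wild type, with 1135, 2821, 242 and 988 genes in all.

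Leaving out 1 array leaves 1 array in a group, so differences and no counts are given here. MRD1 then ran from -2.97 to -2.86 in sdg8 and from -3.07 to -2.67 in sdg8 sdg26 against wild type. Against sdg26 it ran from 0.79 to 1.19 in sdg8 sdg26. HMT3 ran from -1.29 to -0.91 in sdg8 against wild type. MRD1 in sdg8 sdg26 against sdg8 ran from -0.16 to 0.25, and probe A_84_P725341 from -0.58 to 0.26. Of the single-gene values under an alternative, 857 kept direction and side of the threshold, 156 kept direction but lost the call, 12 gained one and 15 turned direction.

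With 2 arrays per genotype, genes that did not pass are not shown to be unchanged. The share of probes well above background ran from 71.9% to 79.0% by array.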
